A study of Mus musculus with 16 samples.

Results

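The genes described here are 7 members of the VEGF system of bone endothelial cells (ECs), namely the ligands Vegfa, Vegfb, Vegfc and Pgf and the receptors Flt1, Kdr and Flt4. They were chosen by gene symbol, and by Ensembl identifier where a table gives no symbols, and all 7 were found among the 38926, 21603 and 38922 genes listed in the 3 expression tables. The study compared ECs sorted by flow cytometry from the femoral metaphysis (mpECs, 3 libraries) and from the diaphyseal marrow cavity (bmECs, 3 libraries), both labelled wildtype, on a C57BL/6 background and taken from Cdh5-mT/nG mice, in which a Cdh5 transgene marks ECs with fluorescent proteins. It also compared bone ECs of Yap1flx/flx; Wwtr1flx/flx mice negative for Cdh5CreERT2 (3 control libraries) with those positive for it (3 libraries labelled Yap1/Taz iΔEC), all at postnatal day 21. The last comparison was of ECs from Lats2flx/flx mice negative (2 control libraries) or positive (2 Lats2 iΔEC libraries) for Cdh5CreERT2. Ages are labelled only for the Yap1/Taz libraries, and the study's methods describe all donors as 3 weeks old. Cdh5CreERT2 is a tamoxifen-inducible Cre recombinase under an endothelial promoter, so it acts in ECs of all organs, and the controls were Cre-negative littermates.

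Vascular endothelial growth factors are secreted dimers that bind receptor tyrosine kinases on ECs. VEGF-A binds KDR (VEGFR2), which carries most of the growth and permeability signal, and FLT1 (VEGFR1), which binds VEGF-A tightly, signals weakly and also exists as a soluble decoy. PlGF, encoded by Pgf, and VEGF-B bind FLT1 alone, whereas VEGF-C binds FLT4 (VEGFR3) and, once processed, KDR. In bone, VEGF-A from chondrocytes and osteoblast lineage cells is known for guiding vessel growth toward the growth plate, and marrow sinusoids are known to carry FLT4 as well as KDR.

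Levels are in FPKM, fragments scaled to gene length and to a size factor of the library, so they can be set side by side between genes of a library. The size factor, as recovered from the values, was not proportional to the reads on genes. It was 8229000 for 11292458 reads in bmEC replicate 1 and 12360000 for 14730772 reads in mpEC replicate 1. Fold changes between libraries depend on this scaling. On GRCm38, all 7 are protein-coding genes, and none shares exon bases with another gene. Vegfa lies on chromosome 17 from 46016993 to 46032369, Vegfb on chromosome 19 from 6982473 to 6987651, Vegfc on chromosome 8 from 54077606 to 54187096 and Pgf on chromosome 12 from 85166635 to 85177790. Flt1 and Kdr share chromosome 5, from 147561604 to 147726011 and from 75932827 to 75978458, and Flt4 lies on chromosome 11 from 49609263 to 49652739. Gene-level values cannot separate membrane-bound from soluble Flt1. In sorted bulk samples, fewer cells of a type and less RNA per cell cannot be told apart.

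The sequences upstream of Vegfa, Flt1 and Kdr are shown. Vegfa and Kdr passed the test in more than 1 comparison, as did Pgf and Flt4, whose windows overlap exons and are not printed. Flt1 and Kdr, on the same chromosome, moved in opposite directions between mpECs and bmECs. Each printed sequence runs 5′ to 3′ over 240 bases, from 250 to 11 bases before the RefSeq start, on the minus strand of GRCm38.p6. The windows are chr17:46032388-46032627, chr5:147726022-147726261 and chr5:75978466-75978705, and none overlaps an exon of the GENCODE M21 annotation. Capitals mark matches on either strand to 5 motifs. The first is ACGTG, the core of hypoxia response elements. The next is GGAATG, which TEAD factors, the partners of YAP1 and TAZ, bind. GGAAGT is bound by ETS factors, TGACGTCA is the cyclic AMP response element, and TATAAA is a TATA box.
Vegfa: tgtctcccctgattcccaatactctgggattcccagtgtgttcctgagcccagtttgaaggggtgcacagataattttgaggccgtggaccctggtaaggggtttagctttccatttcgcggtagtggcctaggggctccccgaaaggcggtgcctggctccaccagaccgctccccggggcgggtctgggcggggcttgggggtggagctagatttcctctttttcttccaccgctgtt
Flt1: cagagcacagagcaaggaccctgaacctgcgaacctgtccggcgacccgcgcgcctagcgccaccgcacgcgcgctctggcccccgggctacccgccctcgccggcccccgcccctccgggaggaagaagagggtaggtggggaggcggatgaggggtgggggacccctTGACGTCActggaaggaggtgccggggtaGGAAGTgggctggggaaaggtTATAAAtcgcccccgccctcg
Kdr: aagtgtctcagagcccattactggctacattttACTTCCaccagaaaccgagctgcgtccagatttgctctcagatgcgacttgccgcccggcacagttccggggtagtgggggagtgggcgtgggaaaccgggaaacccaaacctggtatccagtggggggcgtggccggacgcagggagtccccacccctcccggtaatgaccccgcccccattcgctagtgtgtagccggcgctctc
In the Flt1 window, TGACGTCA, GGAAGT and TATAAA were found in this order, and in the Kdr window GGAAGT was found once, on the other strand as ACTTCC. Of the 32851 RefSeq windows of this length, 1.44% hold TGACGTCA, 18.7% GGAAGT, 12.1% TATAAA, 15.9% ACGTG and 12.2% GGAATG, on either strand. The printed Vegfa window held none of the 5, and a second RefSeq window of Vegfa, chr17:46025174-46025413, held ACGTG once and overlaps Vegfa exons. The windows of Vegfb, Vegfc, Pgf and Flt4 held none, and those of Pgf and Flt4 overlap exons of these genes. A match is a string of letters and not a shown binding site.

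Depth and cell content bear on all values. Reads on genes, recovered from the FPKM values, numbered 11163323 to 14807095 in the mpEC and bmEC libraries, 4889945 to 7162965 in the Yap1/Taz libraries and 4741014 to 7084129 in the Lats2 libraries. All 8 markers of ECs, among them Cdh5, Pecam1 and Emcn, were detected in each group, with sums of 1054 to 1334 FPKM in mpECs, 1120.1 to 1144 in bmECs, 476 to 663 in the Yap1/Taz libraries and 1743 to 2012 in the Lats2 libraries. The 4 markers of lymphatic ECs, in which Flt4 is also known to be high, summed to between 0.108 and 6.02 FPKM and none passed the filter on low values. The hemoglobin and neutrophil genes were present throughout, with sums of the 6 erythroid markers of 18269 to 38517 FPKM in the mpEC and bmEC libraries. The tables were normalized separately, so levels are tested only within a table.

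For the regional comparison, the question was how mpECs and bmECs differ. The ligands Vegfc and Pgf were higher in mpECs, as was the receptor Flt1, whereas Kdr and Flt4 were higher in bmECs. Genes averaging 1 FPKM or more were tested with limma on log2(FPKM + 1), and a member counts as called where its Benjamini-Hochberg adjusted p over all these genes was below 0.05. In bmECs, 2 of the 6 members tested were called higher and 3 lower, beside 13.0% higher and 10.5% lower among 11422 genes (23.5% in all). The groups did not overlap for any of the 7 members, and for 41.3% of all tested genes they did not either. At stricter thresholds, an adjusted p under 0.01 and an absolute log2 fold change above 0.5, 4 members passed, beside 11.7% of the genes tested. Fold changes (log2FC) are log2 differences of FPKM + 1, here bmECs minus mpECs and in the later comparisons mutant minus control.

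Vegfc encodes the main ligand of FLT4. Its level was 17.0, 17.3 and 20.7 FPKM in mpECs and 3.10, 4.83 and 2.48 FPKM in bmECs. All 3 mpEC libraries were thus above all bmEC libraries, and the means of 18.3 ± 2.06 (SD, n = 3) and 3.47 ± 1.22 FPKM differ 5.27-fold. The log2FC was -2.14 (SE 0.19, adjusted p = 0.000197 by limma). Pgf, encoding the FLT1 ligand PlGF, was at 8.70, 8.68 and 10.3 FPKM in mpECs and at 1.23, 1.07 and 2.36 FPKM in bmECs. The highest bmEC library was still well below every mpEC library, and the means differed 5.93-fold (log2FC -2.03, SE 0.19, adjusted p = 0.000267).

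Vegfb was low in both regions, at 1.66, 2.06 and 2.12 FPKM in mpECs and 2.80, 2.57 and 3.12 FPKM in bmECs. The bmEC libraries were all higher, by 0.38 on the log2 scale (SE 0.13), but the difference did not pass the threshold (adjusted p = 0.0659 by limma). Under 14 alternative fits its adjusted p ranged from 0.024 to 0.304, and 3 of these fits passed. Vegfa was close to the detection limit of these libraries. It stood at 0.0566, 0 and 0.120 FPKM in mpECs, or about 3, 0 and 5 reads, and at 0.142, 0.222 and 0.257 FPKM in bmECs, or 5, 9 and 13 reads. A count of 0 in mpEC replicate 2 allows up to 3 reads, or 0.0702 FPKM. Vegfa was under the filter and was not fitted, and an exact two-sided permutation test gave p = 0.1, the smallest that 3 against 3 libraries allow.

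Among the receptors, Kdr, the main signaling receptor, was at 104, 146 and 129 FPKM in mpECs and at 203, 193 and 205 FPKM in bmECs. The bmEC libraries lay close together and above all mpEC libraries, with a log2FC of 0.67 (SE 0.12, adjusted p = 0.00607 by limma). Flt4 was at 69.7, 84.1 and 68.8 FPKM in mpECs and at 160.4, 154 and 167 FPKM in bmECs. Its mean was 2.16-fold higher in bmECs, with a log2FC of 1.11 (SE 0.097, adjusted p = 0.000192). Flt1 went the other way, from 42.6, 52.8 and 51.4 FPKM in mpECs to 31.9, 37.1 and 36.9 FPKM in bmECs, without overlap. Its log2FC of -0.46 (SE 0.11, adjusted p = 0.0188) was the smallest in size among the called members. Leaving out bmEC replicate 1, mpEC replicate 2 or mpEC replicate 3 took the call of Flt1 away, with limma adjusted p = 0.0671, 0.0613 and 0.0721.

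**Figure D1:**
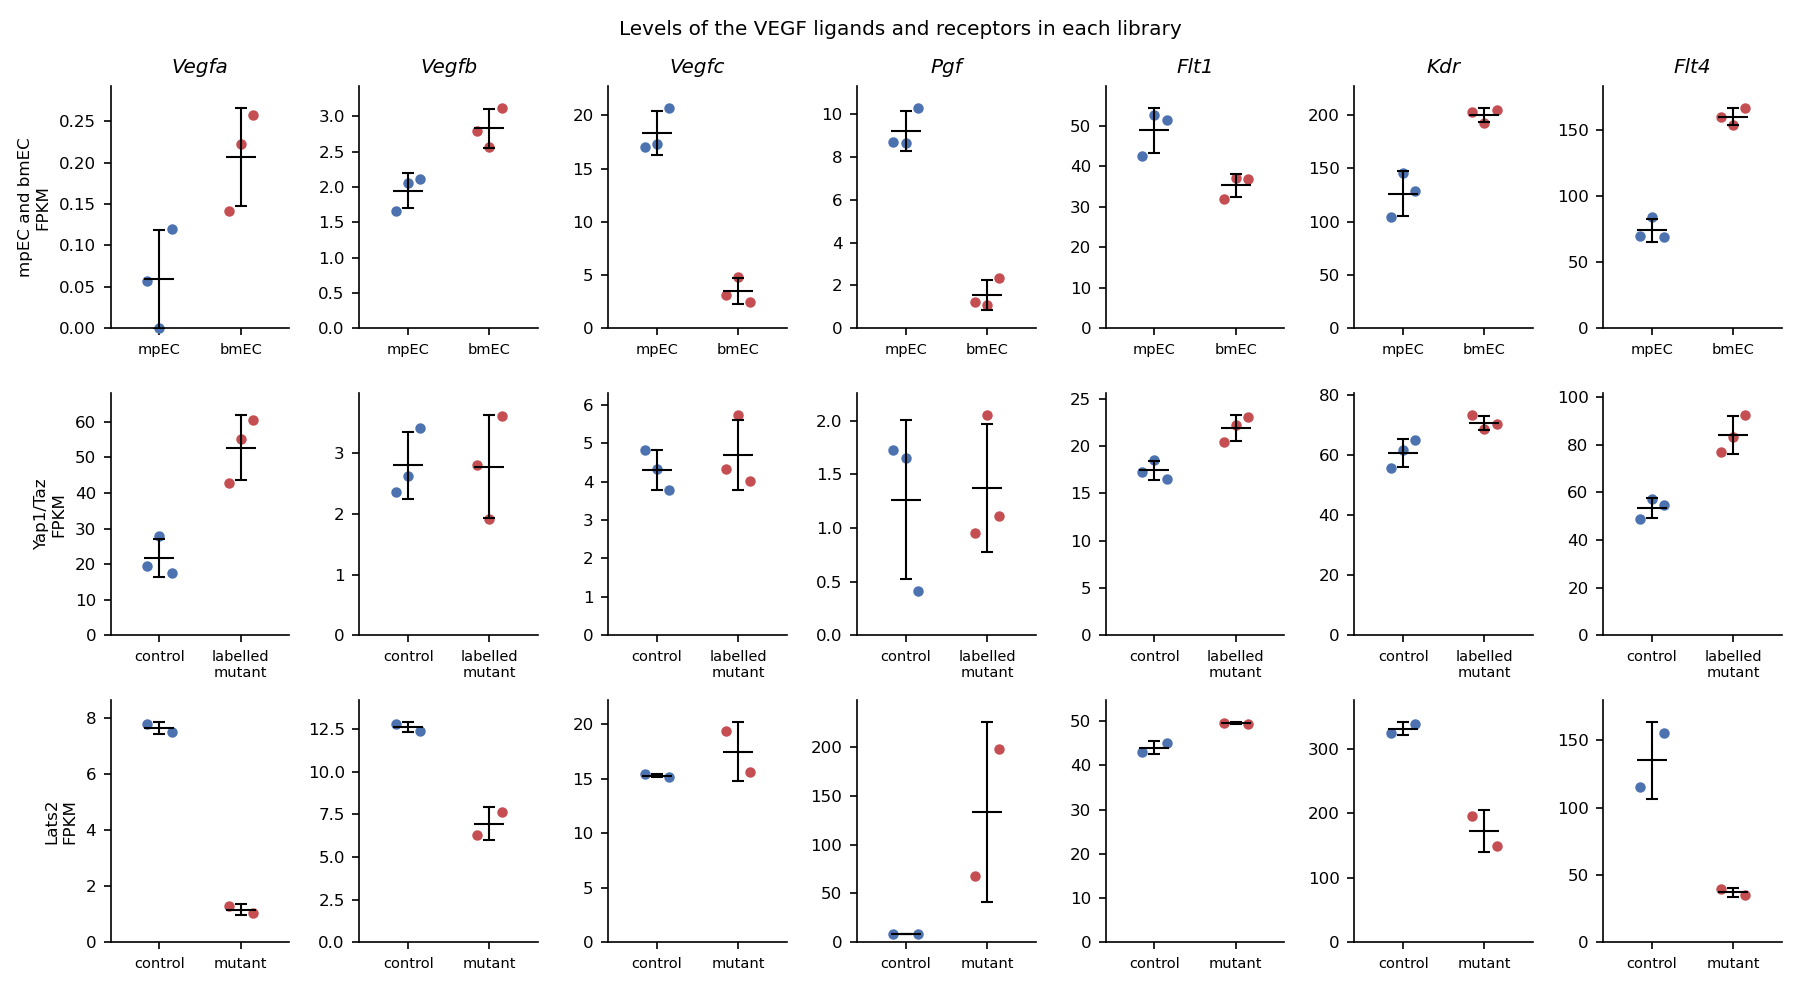
FPKM of each member (columns) in each library (points) for the 3 tables (rows), with the group mean and SD as bars, on linear axes that start at 0 and differ between panels. All mpEC points of Vegfc and Pgf lie above the bmEC points, the Kdr and Flt4 points of bmECs lie above those of mpECs, and the Lats2 iΔEC points of Pgf, 67.8 and 198 FPKM, lie far above the controls at 8.51 and 8.93 FPKM.

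By mean FPKM the order in mpECs was Kdr, Flt4, Flt1, Vegfc, Pgf, Vegfb and Vegfa, and no neighbours in it overlapped. In bmECs it was Kdr, Flt4, Flt1, Vegfc, Vegfb, Pgf and Vegfa, where Vegfc and Vegfb overlapped. The share of Flt1 among the 3 receptors was 18.7% to 20.6% of their summed FPKM in mpECs and 8.06% to 9.65% in bmECs. The share of Kdr was 48.1% to 51.8% and 50.2% to 51.4%, so it overlapped, while that of Flt4 was 27.6% to 32.2% and 40.1% to 40.8%. As a ratio within the library, which no scaling can change, Flt1 to Kdr was 0.410, 0.362 and 0.397 in mpECs and 0.157, 0.192 and 0.180 in bmECs. The log2 ratios of -1.36 ± 0.09 (SD, n = 3) and -2.51 ± 0.15 differed by -1.15 (exact permutation p = 0.1, the smallest possible). The log2 ratio of Flt4 to Kdr was -0.76 ± 0.17 in mpECs and -0.32 ± 0.02 in bmECs, a difference of 0.44 (exact permutation p = 0.1).

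Of the ligand transcripts, Vegfc made up 61.6% to 62.3% of the summed FPKM of the 4 ligands in mpECs and Pgf 31.0% to 31.7%. The mpEC libraries were almost identical in these shares. In bmECs the shares spread more widely, from 30.2% to 55.6% for Vegfc and from 29.6% to 38.5% for Vegfb. Vegfa held 0% to 0.361% in mpECs and 1.95% to 3.13% in bmECs.

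**Figure D2:**
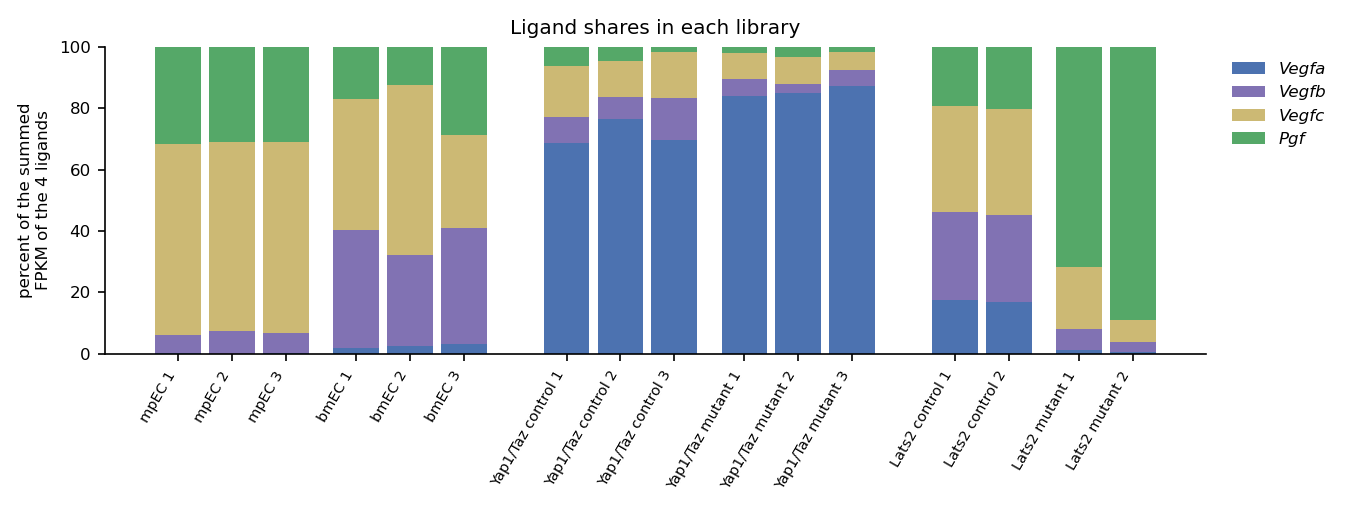
Share of each ligand, in percent of the summed FPKM of the 4 ligands, in every library (bars). Vegfc and Pgf fill over 90% of the mpEC bars, Vegfa fills 68.7% to 87.4% of the Yap1/Taz bars, and Pgf fills 71.5% and 89.1% of the Lats2 iΔEC bars.

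Other genes of the pathway were taken from 6 lists. Neuropilin 1 (Nrp1), a co-receptor for VEGF-A, was at 128, 142 and 131 FPKM in mpECs and 146, 163 and 124 FPKM in bmECs, and neuropilin 2 (Nrp2) at 10.7 ± 2.20 and 10.1 ± 0.850 FPKM (SD, n = 3). Both overlapped between the regions, with adjusted p = 0.54 and 0.83 by limma, and of the 10 tested co-receptors and partners 0 were higher and 1 was lower in bmECs. Vegfd, the other ligand of FLT4, was at 0 reads in each mpEC library and at 1 read in each bmEC library. Of 6 tested ligand relatives and processing enzymes, 1 was higher and 3 lower. Plat, the tissue plasminogen activator, fell from 53.0 ± 8.92 to 4.67 ± 0.989 FPKM (log2FC -3.25, adjusted p = 2e-05). Ctsd, a protease of lysosomes that can process VEGF-C, was higher in bmECs, at 401 ± 26.5 against 229.5 ± 20.2 FPKM (log2FC 0.80, adjusted p = 0.000832), but 34.4% of its exon bases lie in another gene on the same strand, so its reads are uncertain.

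Downstream, 3 of 44 tested signal relay genes had higher and 5 lower levels in the bmEC libraries. Their median log2FC was -0.05 beside -0.001 for all genes tested. Hspb1, a small heat shock protein phosphorylated downstream of VEGF, had a log2FC of 0.88, and the kinase Mapk3 one of -0.59. Of 21 tested VEGF-inducible genes, a list that also holds Pgf and Flt1, 3 were higher and 7 lower, with a median of -0.15. Apln, the tip cell ligand apelin, fell from 24.1 ± 1.6 to 1.41 ± 0.406 FPKM (log2FC -3.39, adjusted p = 1.22e-05). Esm1, another gene of tip cells, fell by 1.66 on the log2 scale, whereas the adhesion receptor gene Icam1 rose by 1.08 and shares 11.7% of its exon bases with a gene on the other strand. In receptor trafficking, 1 of 10 genes was higher and 1 lower: Dab2, an endocytic adaptor for KDR and FLT4, with 0.46, and Efnb2, the ligand ephrin-B2 that promotes receptor uptake, with -1.95. Of 5 tested PDGF and class III receptor genes 0 were higher and 3 lower.

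Markers of other cells moved with these differences. Of 7 tested osteoblast markers, 5 were lower in bmECs, with sums of 247 to 976 FPKM in mpECs and 45.5 to 60.9 FPKM in bmECs. All 4 tested chondrocyte markers were lower too, at 19.0 to 22.9 against 0.0116 to 0.252 FPKM, and Col2a1 was at 0 in every bmEC library. The 5 measured macrophage markers summed to 123 to 151 FPKM in mpECs and 335 to 394 FPKM in bmECs, and Mrc1, the most abundant, was the only one called. The rise of the sum was that of Mrc1, at 97.1, 114 and 85.1 FPKM in mpECs and 351, 341 and 300.1 FPKM in bmECs. The median log2FC of the 5 markers was -0.21. Stromal and pericyte markers summed to 74.3 to 91.4 FPKM in mpECs and 34.7 to 86.5 FPKM in bmECs, with 1 of 5 tested higher and 1 lower. Their part in the values of Vegfc, Pgf and the receptors was not tested.

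For the Yap1/Taz comparison, the question was what loss of both coactivators changes in bone ECs. Of the targeted genes, Wwtr1 was higher and Yap1 overlapped between the groups, so directions below are those of the libraries labelled Yap1/Taz iΔEC. Wwtr1, which encodes TAZ, was at 9.88 to 10.3 FPKM in controls and at 15.3, 19.6 and 19.5 FPKM in the libraries labelled Yap1/Taz iΔEC (log2FC 0.78, adjusted p = 0.0272 by limma). Yap1 was at 1.07, 1.62 and 0.995 FPKM in controls and 1.43, 1.03 and 0.989 FPKM in the others. Gene-level reads do not show whether the floxed exons were removed.

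Vegfa and Flt4 were higher in the libraries labelled Yap1/Taz iΔEC, and no member was lower. That is 2 of 7 tested members higher, beside 0.883% of 11320 tested genes higher and 0.424% lower (1.31% in all). Ranges did not overlap for 4 members, and this holds for 23.6% of all tested genes. At the stricter thresholds, 0 members and 0.00883% of the tested genes passed. Vegfa was at 19.6, 27.8 and 17.6 FPKM in controls and at 42.7, 55.1 and 60.5 FPKM in the libraries labelled Yap1/Taz iΔEC. The lowest of the latter was above the highest control, and the means of 21.7 ± 5.45 and 52.8 ± 9.16 FPKM (SD, n = 3) differed 2.44-fold (log2FC 1.26, SE 0.18, adjusted p = 0.0235 by limma). With 398 to 1473 reads per library, counting error was small beside the spread between libraries.

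Flt4 was at 48.8, 57.1 and 54.6 FPKM in controls and at 76.8, 83.2 and 92.4 FPKM in the libraries labelled Yap1/Taz iΔEC, a log2FC of 0.64 (SE 0.11, adjusted p = 0.0347 by limma). Flt1 was at 17.3, 18.5 and 16.5 FPKM against 20.4, 22.2 and 23.1 FPKM, and Kdr at 55.6, 61.6 and 64.9 FPKM against 73.2, 68.6 and 70.4 FPKM. Both were higher in every library labelled Yap1/Taz iΔEC than in every control, yet neither passed the threshold, with log2FC values of 0.31 (adjusted p = 0.139) and 0.22 (adjusted p = 0.261). The 95% confidence intervals of these differences ran from 0.091 to 0.53 for Flt1 and from 0.0086 to 0.43 for Kdr.

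The other ligands overlapped between the groups. Vegfc was at 4.31 ± 0.519 FPKM in controls and 4.69 ± 0.910 FPKM in the libraries labelled Yap1/Taz iΔEC, and Vegfb at 2.80 ± 0.552 and 2.78 ± 0.851 FPKM. Pgf was at 1.73, 1.65 and 0.408 FPKM against 0.948, 2.05 and 1.11 FPKM, with control replicate 3 the lowest of all at 7 reads. The confidence intervals of their log2FC values, from -0.24 to 0.43 for Vegfc, from -0.45 to 0.40 for Vegfb and from -0.53 to 0.73 for Pgf, leave room for changes in either direction.

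The calls did not hold in every fit with 1 library left out. Vegfa missed the threshold without control replicate 3 (adjusted p = 0.0697 by limma) and without iΔEC replicate 2 (0.137) or 3 (0.144). Flt4 missed it without control replicate 2 (0.0752) or 3 (0.0876) and without iΔEC replicate 2 (0.184) or 3 (0.159). Its direction and that of Vegfa were the same in all these fits, with log2FC values of 1.13 or more for Vegfa and 0.57 or more for Flt4. The calls over all genes fell too, from 148 to 20 and 14 without control replicates 2 and 3. Without iΔEC replicate 2 or 3, only 1 gene was called. Both members stayed called without control replicate 1 or iΔEC replicate 1, where 114 and 293 genes were called.

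Vegfa held 68.7% to 76.4% of the ligand FPKM in controls and 84.1% to 87.4% in the libraries labelled Yap1/Taz iΔEC. In the regional comparison its share was only 0% to 0.361% in mpECs and 1.95% to 3.13% in bmECs. A share within a library does not depend on the scaling of that library, and why these shares differ was not tested. By mean FPKM the order in controls was Kdr, Flt4, Vegfa, Flt1, Vegfc, Vegfb and Pgf, with overlap of Kdr with Flt4 and of Vegfa with Flt1. In the libraries labelled Yap1/Taz iΔEC, Flt4 came first, every value above every Kdr value, and Kdr, Vegfa, Flt1, Vegfc, Vegfb and Pgf followed, of which Vegfb and Pgf overlapped. The ratio of Flt4 to Kdr was 0.877, 0.928 and 0.842 in controls and 1.05, 1.21 and 1.31 in the others, a log2 difference of 0.43 (exact permutation p = 0.1, the smallest possible). The ratio of Flt1 to Kdr, at 0.255 to 0.312 and 0.278 to 0.328, overlapped.

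Few other pathway genes passed the test here. Of 46 tested signal relay genes 0 were higher and 1 was lower, the adaptor Grb2, from 22.8 ± 3.58 to 13.1 ± 1.16 FPKM (log2FC -0.75, adjusted p = 0.0347 by limma). Of 23 tested VEGF-inducible genes 1 was higher and 0 lower, with a median log2FC of 0.40 beside -0.005 for all genes. That gene was Plaur, the urokinase receptor, which rose from 59.3 ± 10.5 to 116 ± 21.7 FPKM (log2FC 0.95, adjusted p = 0.0387). Nrp1 was at 35.9, 31.4 and 31.5 FPKM in controls and 37.3, 41.3 and 42.5 FPKM in the libraries labelled Yap1/Taz iΔEC (adjusted p = 0.168), and Nrp2 overlapped (adjusted p = 0.337). No gene passed among 11 co-receptors and partners, 5 ligand relatives and processing enzymes, 8 PDGF and class III receptor genes and 10 trafficking genes, and Vegfd was at 0, 2 and 6 reads in controls and 0 in the others.

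Cell markers differed between these groups as well. The EC markers summed to 476 to 495 FPKM in controls and 556 to 663 FPKM in the libraries labelled Yap1/Taz iΔEC, and 0 of 8 passed, with a median log2FC of 0.36. This median is larger than the fold changes of Flt1 and Kdr and smaller than those of Flt4 and Vegfa. Of 7 tested osteoblast markers 3 were lower, with sums of 42.2 to 61.8 against 13.2 to 31.4 FPKM. Those of B cells summed to 203 to 232 and 161 to 169 FPKM with 0 of 6 called, and of the 6 megakaryocyte markers 1, Ppbp, was higher. Macrophage markers summed to 723 to 1021 FPKM in controls and 759 to 794 FPKM in the others, with 0 of 6 called. Neutrophil markers summed to 2057 to 2699.5 and 1631 to 3820.1 FPKM, with 0 of 7 called. The part of these cells in the values of Vegfa and Flt4 was not tested.

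For the Lats2 comparison, the question was what loss of this kinase, which restrains YAP1 and TAZ, changes in bone ECs. Lats2 itself was at 23.4 and 24.0 FPKM in controls and at 19.2 in both Lats2 iΔEC libraries (log2FC -0.29, adjusted p = 0.125 by limma), and reads over the whole gene do not show the state of the floxed exons. Pgf rose, and Vegfa, Vegfb, Kdr and Flt4 fell. That is 1 of 7 tested members higher and 4 lower, beside 11.8% higher and 9.98% lower of 12451 tested genes (21.8% in all). Ranges did not overlap for any member, and with 2 against 2 libraries this holds for 68.2% of all tested genes. At the stricter thresholds, 2 members, Vegfa and Flt4, passed, beside 2.06% of the genes tested.

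Pgf was at 8.51 and 8.93 FPKM in controls and at 67.8 and 198 FPKM in Lats2 iΔEC libraries. Both mutant libraries were far above both controls, but they also stood far apart from each other, with a mean of 133 ± 91.7 FPKM (SD, n = 2). The log2FC was 3.59 with a confidence interval from 2.36 to 4.81 (adjusted p = 0.013 by limma). Vegfa was at 7.77 and 7.48 FPKM in controls and at 1.30 and 1.03 FPKM in Lats2 iΔEC libraries, or 166 and 191 against 21 and 22 reads. Replicates lay close together in both groups, and the log2FC was -2.0 (SE 0.17, adjusted p = 0.00759). In a limma-voom fit of recovered reads, which also scales the libraries differently, the log2FC was -2.85, or -2.71 relative to the median of all genes.

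Vegfb fell from 12.8 and 12.4 FPKM to 6.27 and 7.63 FPKM (log2FC -0.78, SE 0.15, adjusted p = 0.0241 by limma). Vegfc was at 15.4 and 15.2 FPKM in controls and 19.4 and 15.6 FPKM in Lats2 iΔEC libraries. The lower of the latter was close to the controls, and the difference of 0.18 (confidence interval -0.20 to 0.55, adjusted p = 0.425) did not pass.

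Kdr was at 324 and 338 FPKM in controls and at 196 and 149.7 FPKM in Lats2 iΔEC libraries, a log2FC of -0.95 (SE 0.17, adjusted p = 0.0204 by limma). Flt4 was at 115 and 155 FPKM against 39.7 and 35.0 FPKM, a 3.61-fold lower mean with a log2FC of -1.81 (SE 0.18, adjusted p = 0.00911). Flt1 was at 43.0 and 45.1 FPKM against 49.7 and 49.4 FPKM. Its log2FC was 0.17 (confidence interval -0.11 to 0.45, adjusted p = 0.318), so it was the receptor without a call.

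**Figure D3:**
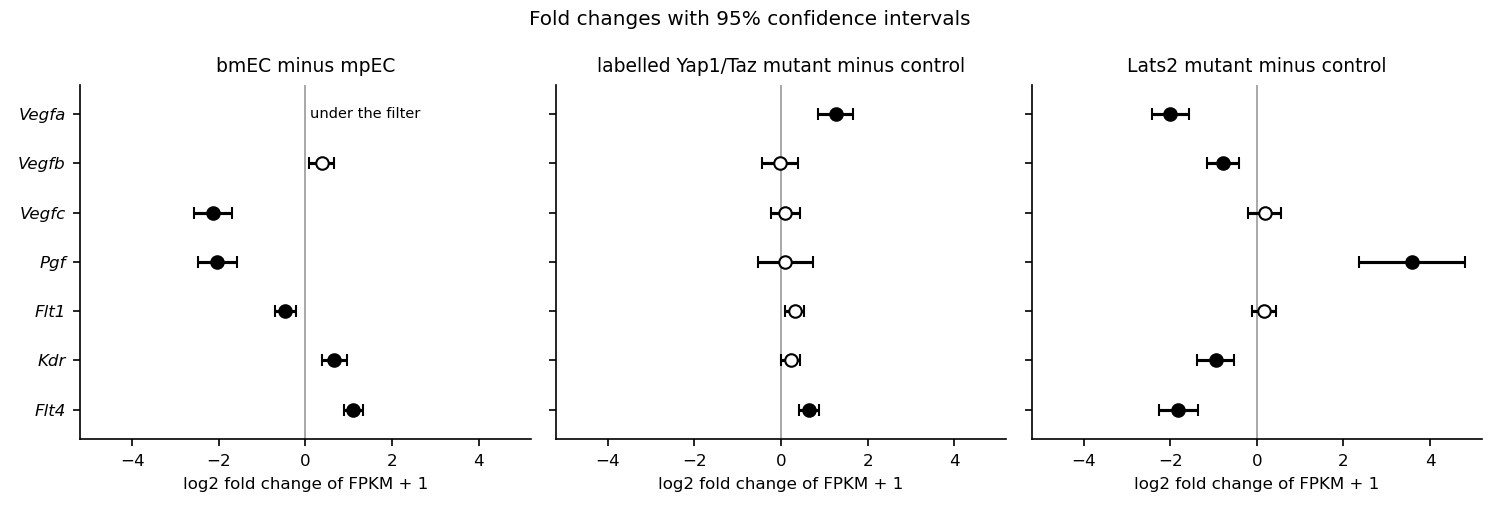
Log2 difference of FPKM + 1 (log2FC) of each member (rows) with its 95% confidence interval (bars) in the 3 comparisons. Filled points passed an adjusted p-value under 0.05, open points did not, and Vegfa was not fitted in the first panel. Flt4 lies at 1.11, 0.64 and -1.81 from left to right, and Kdr at 0.67, 0.22 and -0.95.

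The small number of libraries limits these calls. With either control left out, 1 library stood against 2 and was assumed to vary like the others, and then 0 genes of all tested passed, with 2724 and 2878 genes at an unadjusted p under 0.05. The 5 called members had adjusted p-values between 0.11 and 0.188 in these fits by limma, with the same directions. Leaving out either Lats2 iΔEC library left all 5 called.

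The ratio of Flt1 to Kdr was 0.132 and 0.133 in controls and 0.254 and 0.330 in Lats2 iΔEC libraries, a log2 difference of 1.12 (exact permutation p = 0.333, the smallest that 2 against 2 allow). That of Flt4 to Kdr was 0.355 and 0.457 in controls and 0.203 and 0.234 in the mutants, a difference of -0.89. The Flt1 share of the receptor FPKM was 8.39% and 8.91% in controls and 17.5% and 21.1% in the mutants, while the Kdr share overlapped at 62.9% to 67.2% and 63.9% to 68.6%. In controls the order by mean FPKM was Kdr, Flt4, Flt1, Vegfc, Vegfb, Pgf and Vegfa with no overlap of neighbours, and in the mutants it was Kdr, Pgf, Flt1, Flt4, Vegfc, Vegfb and Vegfa. Pgf, at 19.2% and 20.3% of the ligand FPKM in controls, held 71.5% and 89.1% in the mutants, where its range overlapped that of Kdr.

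**Figure D4:**
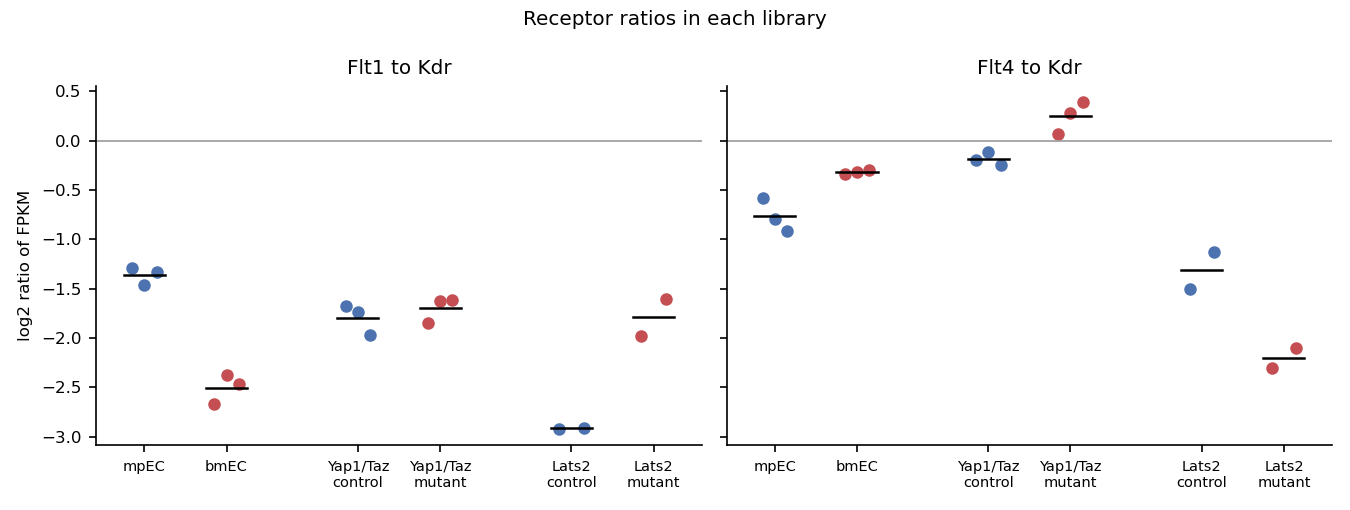
Log2 ratio of Flt1 to Kdr (left) and of Flt4 to Kdr (right) in every library (points), with group means as black lines and equal levels at 0. Flt1 to Kdr was lower in bmECs than in mpECs (-2.51 against -1.36) and higher in Lats2 iΔEC than in control libraries (-1.79 against -2.91). The Yap1/Taz groups overlapped for Flt1 to Kdr but not for Flt4 to Kdr (means of -0.18 in controls and 0.25 in the others).

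Among pathway genes in the Lats2 comparison, VEGF-inducible genes included the largest differences. Of 20 tested, with Pgf and Flt1 again in the list, 6 were higher and 1 lower, with a median log2FC of 0.26 beside -0.003 for all genes. Angpt2, a ligand of the receptor TEK that sprouting ECs make, rose from 8.06 and 8.15 to 172 and 478 FPKM (log2FC 4.98, adjusted p = 0.00817 by limma). Esm1 rose from 5.94 and 8.26 to 122 and 398 FPKM, and Apln from 30.5 and 41.1 to 546 and 993 FPKM. As for Pgf, all of these were higher in Lats2 iΔEC replicate 2 than in replicate 1.

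Of 6 tested PDGF and class III receptor genes, 4 were higher and 0 lower, with a median of 1.2. The growth factor genes Pdgfb and Pdgfd rose by 1.97 and 1.1 on the log2 scale, the receptor gene Kit by 1.30, and Pdgfa by 0.94, with 26.1% of the exon bases of Pdgfa shared with a gene on the other strand. Of 44 tested signal relay genes 2 were higher and 5 lower. Nos3, the endothelial nitric oxide synthase, rose by 0.61 and Hspb1 by 1.16, although 32.3% of the exon bases of Nos3 are shared with a gene on the other strand. The kinase subunit gene Pik3r1 fell by 0.76, and Rac2, a GTPase of blood cells, fell by 1.86. Plat rose by 1.14 and Ctsd fell by 1.06, 1 gene in each direction of the 5 tested ligand relatives and processing enzymes, and Vegfd was at 0 and 1 reads against 0 and 3. The endocytic adaptors Dab2 and Numb fell by 1.34 and 0.76, and no other of the 10 trafficking genes passed. Nrp1 overlapped at 130.1 and 147 against 142 and 126 FPKM (adjusted p = 0.81), Nrp2 was at 22.9 ± 2.60 and 18.0 ± 2.76 FPKM (SD, n = 2, adjusted p = 0.197), and 0 of 11 co-receptors and partners passed.

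**Figure D5:**
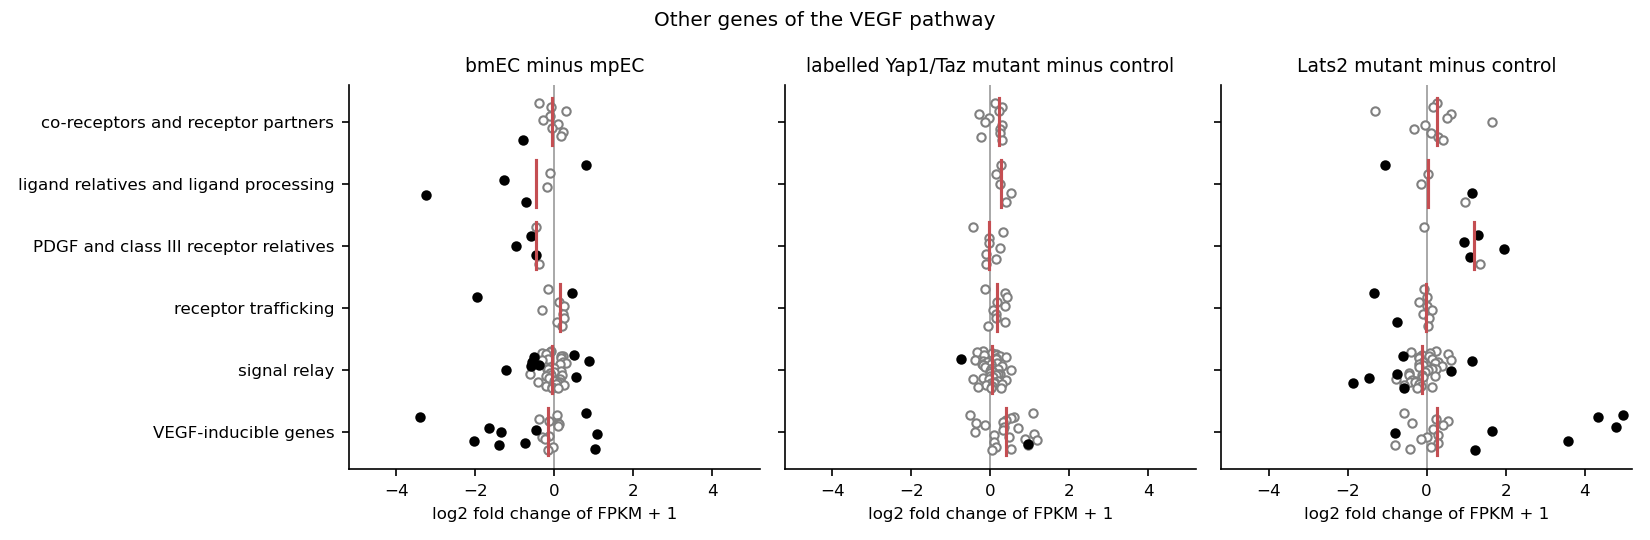
Log2 difference of FPKM + 1 (log2FC) for the tested genes (points) of 6 lists of pathway genes (rows) in the 3 comparisons, filled where the adjusted p-value is under 0.05, with the median of each list as a red line. VEGF-inducible genes reach -3.39 in bmECs against mpECs and 4.98 in Lats2 iΔEC against control, and 2 genes over all lists passed in the Yap1/Taz comparison.

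Markers of blood cells were lower in the Lats2 iΔEC libraries. Of 7 neutrophil markers 5 were lower, with sums of 1918 to 2873 FPKM in controls and 703 to 843 FPKM in the mutants. Of 6 B cell markers 5 were lower, at 82.5 to 93.2 against 23.2 to 30.9 FPKM, and of 6 erythroid markers 2, at 1998 to 2729 against 159.5 to 1100.3 FPKM. Of 5 tested megakaryocyte markers 1 was lower, at 29.9 to 112 against 9.72 to 12.1 FPKM, with Gp1bb and Gp9 at 0 in both mutants. Stromal and pericyte markers were higher for 4 of 6 tested and lower for 0, at 46.7 to 61.5 against 109 FPKM. The most abundant in the mutants was Kitl, at 15.2 and 21.3 against 45.6 and 36.3 FPKM. In controls it was Cxcl12, at 22.2 and 29.8 against 40.1 and 41.4 FPKM. Whether these transcripts came from stromal cells or from ECs was not tested. Of the 8 EC markers 1 was higher and 1 lower, with sums of 1743 to 1902 and 1974 to 2012 FPKM. Macrophage markers summed to 147 to 166 FPKM in controls and 21.6 to 53.4 FPKM in the mutants, where 1 of 4 tested, Mrc1, was lower. The fall of the sum was that of Mrc1, at 151 and 137 FPKM in controls and 25.2 and 12.4 FPKM in the mutants. The median log2FC of the 4 tested was 0.14. Osteoblast markers summed to 84.8 and 13.8 FPKM in control replicates 1 and 2 and to 43.2 and 68.6 FPKM in the mutants. Of the 6 osteoblast markers tested 1 was higher, Spp1, at 6.83 and 3.57 against 25.9 and 53.9 FPKM, with the highest value in mutant replicate 2, as for Pgf. The part of these cells in the lower values of Vegfa, Vegfb, Kdr and Flt4 or the higher values of Pgf was not tested.

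The genes most like each receptor were found over the 16 libraries, as the Pearson correlation of log2(FPKM + 1) centred on each table, among the 4947 genes that averaged 5 FPKM or more in every table. The points share 3 tables and their group differences, so the values describe likeness only. For Kdr these were Adam9 (r = 0.977), Zfp521, Timp3, Gna12 and Gpr182 (r = 0.971). For Flt4 they were Id2 (r = 0.980), Abcc9, Map4k5, Cd38 and Kcnj8 (r = 0.971). Flt4 and Kdr had r = 0.947 with each other. For Flt1 they were Bcl6b (r = 0.965), Id1, N4bp3, Vgll4 and Ptprm (r = 0.918), while Flt1 had r = -0.426 with Kdr and r = -0.366 with Flt4.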

How the data were processed

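RNA was sequenced from 16 libraries of sorted bone ECs. According to the labels and methods, the authors made libraries with the TruSeq Stranded Total RNA kit, mapped reads with TopHat to GRCm38 (mm10), counted them per gene with HTSeq 0.6.1, and deposited FPKM values. The files of the Yap1/Taz libraries name no unit, and their values step as FPKM do. How counts became FPKM and which strand setting was used are not given in the sources used here, and animals were combined irrespective of sex. The methods describe biological triplicates, the Lats2 table holds 2 libraries per group, and how many animals went into a library is not given in the sources used here, so p-values measure the spread between these libraries. All pairs of replicates differed by more than counting noise.

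Genes averaging 1 FPKM or more in a comparison were tested on log2(FPKM + 1) with limma 3.58.1 (R 4.3.3), empirical Bayes with a mean-variance trend, a group term and Benjamini-Hochberg adjustment over all genes tested, at a threshold of 0.05. The pseudocount understates changes of low genes. Tests are two-sided. Vegfa in mpECs and bmECs and the receptor ratios were tested by exact permutation. The members and gene lists were chosen with earlier results of these data known. Beside all members, at most 4 called genes per list, averaging 5 FPKM or more and with the largest fold changes, were named, with Vegfd, Nrp1, Nrp2, the targeted genes and the 5 genes most like each receptor. Marker genes were named after their values were seen. In the table of Lats2 libraries, 4 rows with duplicated names were left out.

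Reads were recovered as FPKM times the exon length in GENCODE M21 and a size factor per library. Of the low values, 62.3% to 70.0% lay within 0.02 of a whole read. These reads were fitted with limma-voom as an alternative. Other alternatives were the filter, pseudocount, scaling, trend, a replicate block, leaving out each library and, added after seeing the data, removal of GC and length trends. The main fit was also run on simulated counts, with the same spread assumed for all genes. Such counts leave out differences in cell content between libraries, so they cannot show how often calls in these data are wrong. Sequences came from RefSeq on GRCm38.p6, where all 7 members had an entry. Tables and figures were made in Python 3.11.15 (pandas 2.3.3, numpy 2.4.6; plots by matplotlib 3.10.9).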

Additional observations from a re-analysis of the deposited data

How the results depend on the processing

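In the regional comparison, Vegfc, Pgf, Kdr and Flt4 passed in all 15 alternative fits, and Flt1 in 12. For Yap1/Taz, the count of 2 called members fell to 1 with a replicate block (Vegfa), to 0 with no filter on low values, to 0 with no mean-variance trend, and to 0 at the stricter thresholds, and with 1 library left out it ranged from 0 to 2. For Lats2, the count of 5 fell to 3 with no filter (Vegfa, Pgf and Flt4) and to 2 at the stricter thresholds (Vegfa and Flt4), and ranged from 0 to 5 with 1 library left out. The cause of these changes was not tested. Without a filter more genes entered the adjustment, and leaving out a library left fewer libraries.

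Only members that passed no test in the Yap1/Taz comparison changed direction, each without 1 library. Without control replicate 3, Vegfb had a log2 fold change of 0.09 and Pgf of -0.21, and without iΔEC replicate 2 Vegfb had 0.15, Vegfc -0.03 and Pgf -0.10. Over all fits without 1 library, Vegfb ranged from -0.18 to 0.15, Vegfc from -0.03 to 0.18 and Pgf from -0.21 to 0.27. The log2 difference of the Flt1 to Kdr ratio ranged over the alternatives from -1.21 to -1.07 in the regional comparison, from 0.02 to 0.18 for Yap1/Taz and from 0.94 to 1.31 for Lats2, and that of Flt4 to Kdr from 0.36 to 0.53, from 0.36 to 0.52 and from -1.07 to -0.70.

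The main fits did not treat replicate numbers as pairs, and the values do not settle whether they mark pairs. In the regional comparison, deviations of libraries with the same number correlated at 0.307, 0.0876 and 0.102. Other pairs there ranged from -0.206 to 0.115, the highest being mpEC replicate 2 with bmEC replicate 3. For Yap1/Taz, the same numbers gave -0.175, -0.123 and -0.155, and other pairs -0.154 to 0.235. For Lats2 they gave 0.0651, but 2 libraries per group fix the same size for every pair. Of all genes tested for Yap1/Taz, 148 were called, against 1 with no filter, 17 with no mean-variance trend, 357 with limma-voom and 1 to 293 with 1 library left out. For Lats2, 2711 were called, against 1389 with no filter and 0 to 2701 with 1 library left out. The block changed the count of called genes from 2682 to 3072, from 148 to 45 and from 2711 to 2655, and no call of a member other than Flt4 for Yap1/Taz (adjusted p = 0.0672 by limma).

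Scaling recovered reads by library size, in limma-voom, shifted the median log2 fold change of all genes to -0.195, -0.056 and -0.142. Relative to this shift, Flt1 changed by -0.47 in the regional comparison and by 0.18 for Lats2, and no member changed direction. Vegfa in mpECs and bmECs, and Pgf and Vegfb in the Yap1/Taz libraries, rest on at most 35 reads per library.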
